A study of Mus musculus with 12 samples.

Results

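The tumour necrosis factor (TNF) ligand and receptor superfamily was followed in mouse liver RNA. Its members were taken as the rows of the count table whose gene symbol is Tnfsf or Tnfrsf with a number, plus Tnf, Lta, Ltb, Ltbr, Fas, Fasl, Cd40, Cd40lg, Cd27, Cd70, Ngfr, Edar and Eda2r. The rule found 45 members among 55357 genes, and 39 of them had enough counts to be tested. The rule uses symbols alone and no measured value, but members and roles were chosen with earlier results of these data known. One of the 45, Tnfsf13os, is an antisense RNA beside Tnfsf13 and codes for no ligand.

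Ligands of this superfamily are mostly trimeric proteins of the cell surface, some of which are shed, and they act by clustering their receptors. Receptors with a death domain (TNFR1, FAS, DR5 and others) recruit adaptors that can start caspase-8 activation and apoptosis, or necroptosis through RIPK3 and MLKL. Receptors without a death domain bind TRAF adaptors and feed into the canonical or the non-canonical NF-κB pathway, and a further set costimulates T and B cells. In liver, TNF from macrophages, TRAIL, FAS ligand and the TWEAK receptor FN14 are known for their parts in hepatocyte death, inflammation and regeneration.

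All mice were male C57BL/6J carrying floxed PPARa alleles (PPARa fl/fl). KO mice also carried the AlbuminCre transgene (AlbuminCre Tg/+), which deletes the gene in hepatocytes, so other liver cells of the KO still hold an intact gene, and WT mice did not (AlbuminCre +/+). From 7 weeks of age they received chow or CDAHFD, a choline-deficient high-fat diet with defined amino acids, for 6 weeks. The 4 groups were WT chow (n = 4), KO chow (n = 2), WT CDAHFD (n = 3) and KO CDAHFD (n = 3), and each of the 12 libraries was taken as 1 mouse. The methods name the same number of mice for every group, which the labelled libraries do not match, and the second KO chow library carries the number 3 in its label. Where the sources do not tie a library to a mouse, p-values measure only the spread between these libraries. The comparisons ask what loss of hepatocyte PPARα, the diet and both together do to these transcripts.

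Values are read counts per gene, given here as CPM (counts divided by the library's total after TMM scaling, times a fixed constant) with the SD between libraries. Libraries held 29906785 to 43551003 counts, and members under 1 CPM rest on few reads. Ppara, the targeted gene, ran from 96.2 to 238 CPM in WT chow, from 59.5 to 75.5 in WT CDAHFD, from 14.4 to 38.7 in KO chow and from 20.7 to 51.9 in KO CDAHFD, and so went with the labels. Hepatocyte markers were high in all libraries, with Alb at 59279 to 74134 CPM in WT chow. Clock genes split the libraries into 2 sets that cross the groups. A score of evening minus morning clock genes was 2.01 to 4.43 (log2) in 4 libraries, WT chow replicates 3 and 4, KO chow replicate 2 and KO CDAHFD replicate 3, and −3.37 to −0.39 in the other 8. Results are therefore also given over those 8 libraries, where KO chow has 1 library and is assumed to vary like the other groups.

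Promoter sequences were looked up for the members because NF-κB is the pathway many of these receptors lead to and because Tnf, Ltb and Tnfrsf9 are themselves textbook NF-κB target genes. RefSeq windows (GRCm38.p6) of 300 bases, 250 before and 50 after a transcription start, were at hand for 34 of the 45 members, in 38 windows. The NF-κB consensus was matched on either strand in 4 of 38 windows (10.5%), against 8.46% of all 32851 windows. The AP-1 motif TGANTCA was matched in 7 of 38 (18.4%), against 7.81% of all. Windows of 1 gene can overlap, so 1 match can stand in 2 of them. Exonic bases were kept in this count. The NF-κB and AP-1 matches of Tnfrsf9 and the AP-1 matches of Tnfsf13 and Tnfsf13b lie in annotated exons of these genes. Members with an NF-κB match were Ltb, Tnfrsf8, Tnfrsf9 and Tnfrsf25, and those with an AP-1 match were Tnfrsf8, Tnfrsf9, Tnfsf13b, Tnfsf13, Tnfsf14 and Fas. A match says that these letters stand there, not that a factor binds.

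The stretches upstream of 4 members are shown, 5′ to 3′ on the strand of the gene, with exonic bases left out. Ltb and Tnfrsf8 are shown for their matches, and Tnf and Eda2r as members with some of the largest differences between groups and no match in the window. Capitals mark NF-κB or AP-1 matches. The Ltb match lies at chr17:35194420-35194429, 87 to 78 bases before the RefSeq start. In Tnfrsf8 a pair of overlapping NF-κB matches spans chr4:145315322-145315332, and the AP-1 match lies at chr4:145315290-145315296.
Ltb, chr17:35194307-35194438, plus strand: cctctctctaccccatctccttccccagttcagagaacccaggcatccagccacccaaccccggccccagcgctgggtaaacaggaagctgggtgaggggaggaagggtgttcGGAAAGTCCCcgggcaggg
Tnfrsf8, chr4:145315165-145315364, minus strand: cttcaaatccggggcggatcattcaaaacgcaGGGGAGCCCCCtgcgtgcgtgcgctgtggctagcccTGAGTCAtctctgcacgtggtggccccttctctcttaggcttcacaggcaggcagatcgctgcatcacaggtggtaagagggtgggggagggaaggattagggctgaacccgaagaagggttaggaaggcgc
Tnf, chr17:35202008-35202207, minus strand: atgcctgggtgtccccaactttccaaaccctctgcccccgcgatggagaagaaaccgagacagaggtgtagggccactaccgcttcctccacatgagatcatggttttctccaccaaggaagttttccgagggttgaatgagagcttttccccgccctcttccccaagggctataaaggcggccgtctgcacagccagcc
Eda2r, chrX:97377217-97377409, minus strand: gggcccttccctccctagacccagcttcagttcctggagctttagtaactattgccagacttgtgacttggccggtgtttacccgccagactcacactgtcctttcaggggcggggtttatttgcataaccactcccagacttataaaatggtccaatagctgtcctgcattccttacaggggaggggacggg
In Tnfrsf9 a pair of overlapping NF-κB matches, chr4:150927956-150927966 on the plus strand, lies 43 to 33 bases before an internal start. These bases lie in an annotated exon of Tnfrsf9, unlike the 4 stretches above. Only this stretch is shown, with 6 bases on either side.
Tnfrsf9: gcagctGGGGATTTCCCaggagg

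Against WT chow, many members rose in each of the other groups and none passed the test as lower. In KO chow 19 of 39 tested members rose (48.7%), where 22% of all 17358 genes tested were called higher and 17% lower. In WT CDAHFD 24 rose (61.5%), with 26.1% of all genes higher and 25% lower. In KO CDAHFD 24 rose (61.5%), with 26.9% of all genes higher and 25.4% lower. The counts by role and by marker list given below are to be read beside these shares of all genes. The median log2 fold change of the tested members was 0.99, 1.23 and 1.09 in these comparisons, and that of all genes 0.00, −0.05 and −0.04. Adjusted p values come from a quasi-likelihood fit of all 12 libraries in edgeR, with the Benjamini-Hochberg method applied across every tested gene, and a member is called at an adjusted p under 0.05. In RNA of whole liver, a change in the number of cells of a type and a change in RNA per cell cannot be told apart. The 3 comparisons share the WT chow libraries, so their lists are not independent of each other.

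Of the 39 members tested, 10 would not have passed the filter on counts in the WT chow libraries alone, and these could hardly be called lower. They were Tnf, Fasl, Tnfsf8, Tnfsf9, Tnfsf15, Cd40lg, Tnfrsf8, Tnfrsf9, Tnfrsf13c and Edar. Among the other 29, 14, 18 and 18 rose in KO chow and in WT and KO mice on CDAHFD, and none fell. The share of all genes called under that filter was not computed, so these counts have no matching background. Over the 8 libraries with a low clock score 38 members were tested. Their median log2 fold changes there were 1.09, 1.14 and 0.94, and those of all genes 0.00, −0.01 and −0.02. With total counts as the only scaling, the median of all genes moved to 0.40, 0.51 and 0.57. The share of all calls that were higher went from 56.4%, 51% and 51.4% to 86%, 88.6% and 89.9%. At that setting 25, 33 and 32 members were called, all higher, where 40.5%, 52.4% and 56.3% of all genes were called higher.

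**Figure D1:**
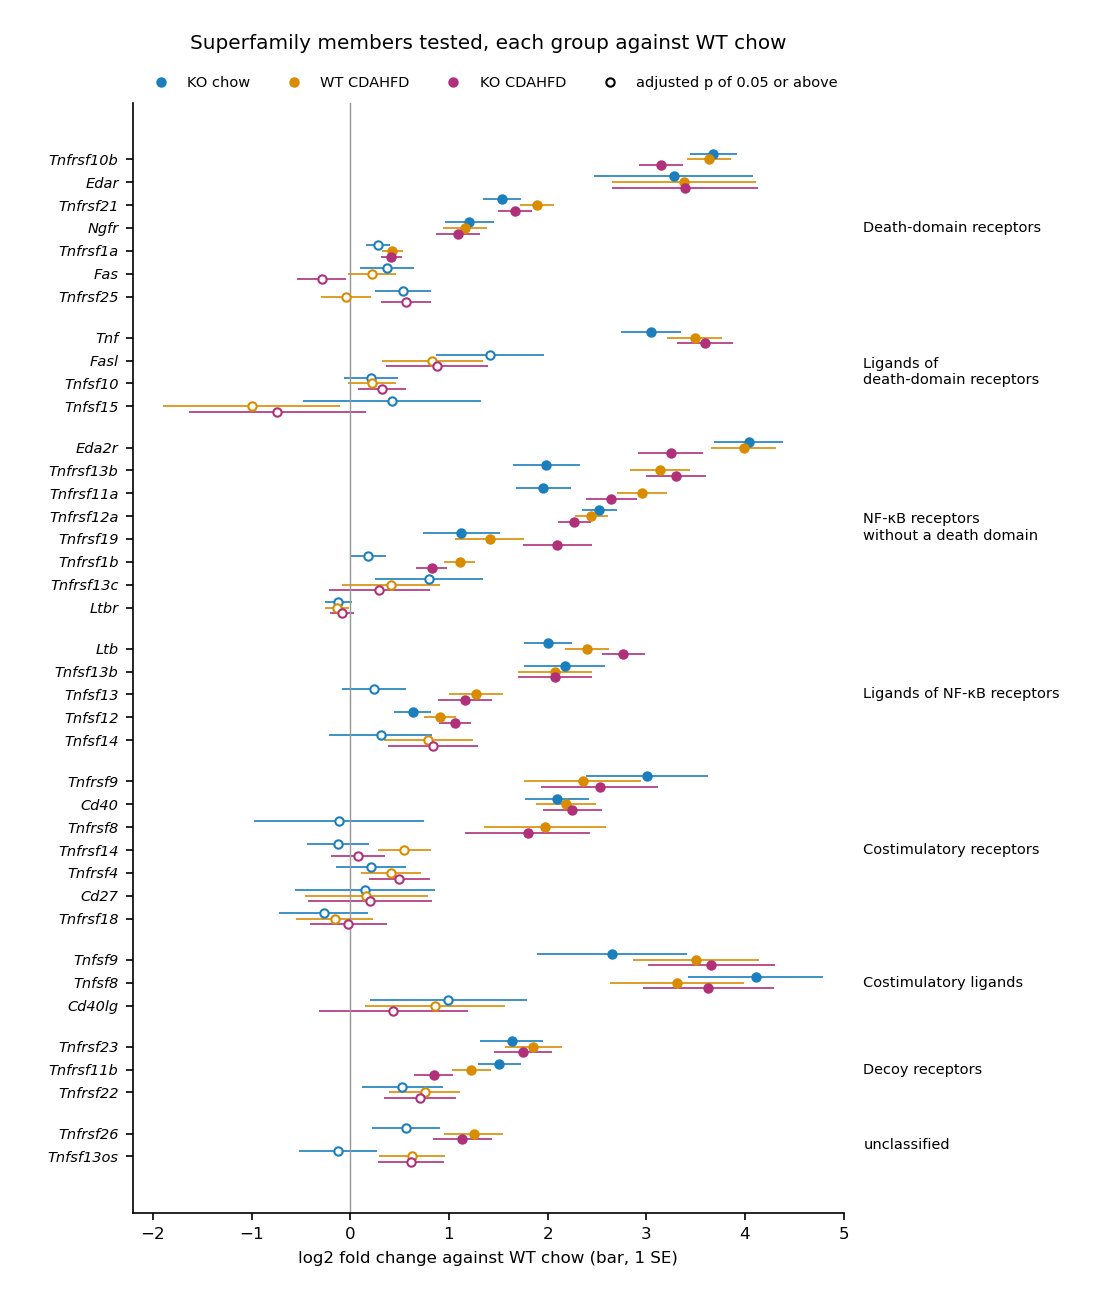
Log2 fold changes of the 39 tested members against WT chow (x axis, log2; bars, 1 SE), by role, in KO chow and in WT and KO mice on CDAHFD. Filled points passed the test (19, 24 and 24 members) and all of them lie to the right of 0, while open points did not pass.

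Of the 7 receptors with a death domain, all tested, 4 rose in KO chow and 5 in each CDAHFD group. The largest change in KO chow and WT CDAHFD was that of Tnfrsf10b (chr14:69767472-69784411, plus strand), which encodes DR5, the only death receptor for TRAIL in mice. It was at 0.738, 0.346, 0.40 and 0.459 CPM in WT chow, at 6.25 and 6.14 in KO chow, at 6.35, 5.63 and 6.07 in WT CDAHFD and at 4.61, 4.54 and 3.69 in KO CDAHFD. The WT chow libraries lay far below all others, and KO CDAHFD lay below both KO chow and WT CDAHFD without overlap. Its log2 fold changes were 3.68 (SE 0.24) in KO chow, 3.64 (SE 0.22) in WT CDAHFD and 3.15 (SE 0.22) in KO CDAHFD, with adjusted p of 3.0e-07, 8.5e-08 and 2.4e-07. The step from WT CDAHFD to KO CDAHFD, −0.49 (95% interval −0.92 to −0.06), missed the threshold after adjustment (adjusted p = 0.50).

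Tnfrsf21 (chr17:43016555-43089189, plus strand), the gene of DR6, rose in the same comparisons by less. Its levels were 8.58, 9.35, 7.17 and 5.32 CPM in WT chow, at 20.4 and 23.9 in KO chow, at 32.9, 25.8 and 26.2 in WT CDAHFD and at 26.6, 25 and 21.4 in KO CDAHFD, and the groups did not overlap with WT chow. The log2 fold changes were 1.54 (SE 0.19) in KO chow, 1.89 (SE 0.17) in WT CDAHFD and 1.67 (SE 0.17) in KO CDAHFD. Ngfr, the low-affinity neurotrophin receptor and in liver a known marker of stellate cells and portal fibroblasts, rose from 6.53 ± 2.08 CPM (SD, n = 4) to 15.1 ± 1.68 (n = 2), 14.7 ± 3.54 (n = 3) and 14 ± 0.878 (n = 3) in KO chow and in WT and KO mice on CDAHFD, with log2 fold changes of 1.20, 1.16 and 1.09 and adjusted p of 0.0021, 9.1e-04 and 0.0013. Stellate cell markers (Pdgfrb, Lrat, Reln and Dcn) summed to 201 to 275 CPM in WT chow and 581 to 582, 595 to 628 and 605 to 655 in KO chow and in WT and KO mice on CDAHFD, with 3 of 4 higher in each. The part of these cells in the Ngfr result was not tested.

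Tnfrsf1a, the gene of TNFR1, was per length the most abundant death receptor and changed by small amounts in the main fit. Over the alternative fits its log2 fold change ran from 0.36 to 0.98 in WT CDAHFD and from 0.35 to 1.02 in KO CDAHFD. It stood at 111, 92, 108 and 84 CPM in WT chow, at 123 and 117 in KO chow, at 137, 129 and 132 in WT CDAHFD and at 132, 139 and 124 in KO CDAHFD. All CDAHFD libraries lay above all WT chow libraries, and so did the KO chow libraries by a small margin. The log2 fold change was 0.42 (SE 0.11) in WT CDAHFD and 0.42 (SE 0.11) in KO CDAHFD (adjusted p = 0.0054 and 0.0057), and 0.28 (SE 0.12) in KO chow, which was not called (adjusted p = 0.083) but was without WT chow replicate 1 (0.36, adjusted p = 0.027).

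Fas was read at 28.8, 16.5, 15.6 and 15.6 CPM in WT chow, at 31.2 and 18.4 in KO chow, at 20.2, 25 and 21.8 in WT CDAHFD and at 16.3, 18.8 and 11.8 in KO CDAHFD. The groups overlapped, and WT chow replicate 1 stood apart from the other WT chow libraries. No comparison with WT chow was called, with log2 fold changes of 0.37, 0.22 and −0.29. Without WT chow replicate 1, Fas was called higher in KO chow (0.65, adjusted p = 0.030) and in WT CDAHFD (0.51, adjusted p = 0.047). Tnfrsf25, the DR3 gene, ran from 0.567 to 0.642 CPM in WT chow and from 0.512 to 0.680 in WT CDAHFD. In KO chow it ran from 0.789 to 0.970 and in KO CDAHFD from 0.749 to 1.02. All KO libraries thus lay above all WT libraries, but Tnfrsf25 was not called against WT chow (log2 0.54, −0.04 and 0.57). Edar, the ectodysplasin receptor of skin appendages, had 0, 1, 1 and 0 counts in WT chow, 7 and 9 in KO chow, 14, 8 and 10 in WT CDAHFD and 10, 4 and 13 in KO CDAHFD. It was called higher in all 3 comparisons, with ratios of pooled counts to WT chow of 11.2-fold (interval 2.64 to 101) in KO chow, 12-fold (interval 3.06 to 103) in WT CDAHFD and 12.2-fold (interval 3.07 to 106) in KO CDAHFD, where intervals are exact 95% counting intervals. Over the 8 libraries with a low clock score Edar was no longer called in KO chow (adjusted p = 0.085) or KO CDAHFD (adjusted p = 0.052).

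Of the 5 ligands of death-domain receptors, 4 were tested and only Tnf was called. Tnf (chr17:35199381-35202007, minus strand) encodes the name-giving cytokine, made in liver mainly by macrophages. It was at 0.427, 0.22, 0.30 and 0.138 CPM in WT chow, at 2.72 and 1.87 in KO chow, at 2.99, 2.99 and 3.34 in WT CDAHFD and at 3.54, 3.56 and 2.97 in KO CDAHFD. Each library outside WT chow held at least 1.87 CPM and each WT chow library at most 0.427, so the groups were far apart. Log2 fold changes were 3.05 (SE 0.31) in KO chow, 3.49 (SE 0.28) in WT CDAHFD and 3.60 (SE 0.28) in KO CDAHFD, with adjusted p of 8.4e-06, 6.9e-07 and 5.2e-07. Macrophage and Kupffer cell markers (8 genes) summed to 297 to 530.2 CPM in WT chow, from 887 to 1179.9 in KO chow, from 714 to 887 in WT CDAHFD and from 511 to 875 in KO CDAHFD, and their part in the Tnf result was not tested. Among these markers 6 rose and none fell in KO chow, and 4 rose and 1 fell in each CDAHFD group.

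Tnfsf10, the gene of TRAIL, stayed at 4.77 to 7.44 CPM in WT chow, from 5.38 to 8.15 in KO chow, from 5.82 to 7.47 in WT CDAHFD and from 5.64 to 10.2 in KO CDAHFD, and its log2 fold changes of 0.21, 0.22 and 0.32 were not called. The receptor Tnfrsf10b thus rose where its ligand was not called. Fasl, a product of cytotoxic T and NK cells, had 6, 7, 2 and 3 counts in WT chow, 25 and 9 in KO chow, 15, 12 and 16 in WT CDAHFD and 16, 9 and 12 in KO CDAHFD. Its fold changes were not called (1.42, 0.83 and 0.88, adjusted p = 0.057, 0.19 and 0.17), and in KO chow the call turned without KO chow replicate 2 (adjusted p = 0.018) and without WT chow replicate 1 (adjusted p = 0.0498). NK cell markers (4 genes) summed to 0.466 to 0.917 CPM in WT chow and to 1.75 to 2.04, 1.77 to 2.01 and 1.34 to 1.57 in KO chow and in WT and KO mice on CDAHFD. Tnfsf15, the TL1A gene, had 0 to 16 counts per library and no call. Lta, the lymphotoxin-α gene, had 0 to 7 counts per library and was not tested.

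**Figure D2:**
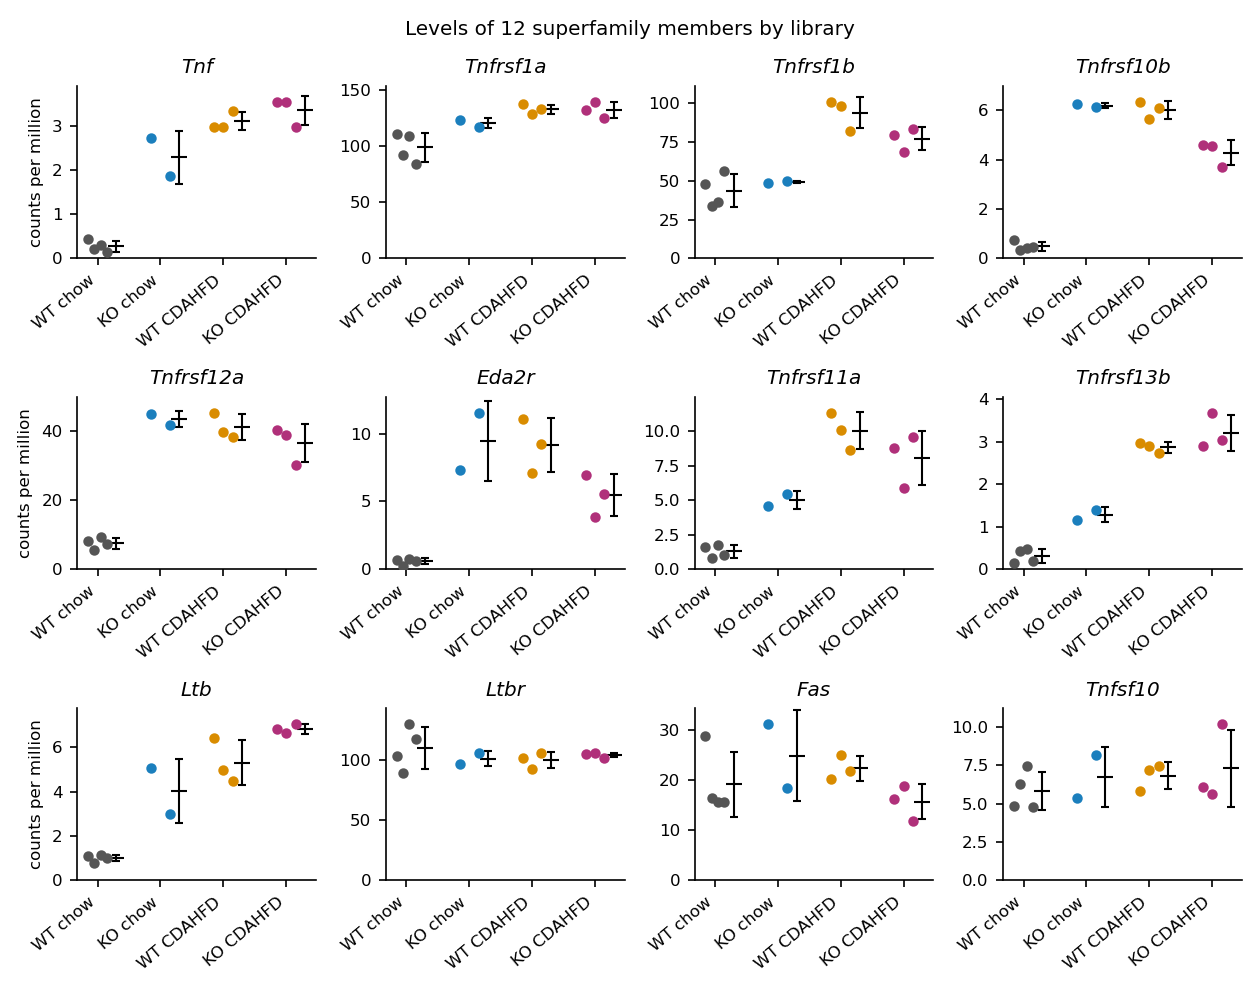
CPM (y axis, linear, from 0) of 12 members in each library of the 4 groups. Points are libraries, the bar beside them is the mean with its SD. Tnf, Tnfrsf10b, Tnfrsf12a, Eda2r, Tnfrsf11a, Tnfrsf13b and Ltb show WT chow libraries below all others, Tnfrsf1b shows both chow groups below both CDAHFD groups, and Ltbr, Fas and Tnfsf10 overlap.

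Of the 9 NF-κB receptors without a death domain, 8 were tested, of which 5 rose in KO chow and 6 in each CDAHFD group. Eda2r (chrX:97333840-97377216, minus strand), the receptor of ectodysplasin A2 and a known p53 target gene, differed most in KO chow and WT CDAHFD. It was at 0.699, 0.252, 0.767 and 0.596 CPM in WT chow, at 7.34 and 11.5 in KO chow, at 11.1, 7.13 and 9.2 in WT CDAHFD and at 6.93, 3.88 and 5.57 in KO CDAHFD. Log2 fold changes were 4.04 (SE 0.35) in KO chow, 3.99 (SE 0.33) in WT CDAHFD and 3.25 (SE 0.33) in KO CDAHFD, with adjusted p of 2.6e-06, 8.0e-07 and 4.4e-06. WT chow was below all other libraries, and the KO CDAHFD libraries were the lowest of the rest, with a log2 difference from WT CDAHFD of −0.74 (95% interval −1.38 to −0.10, adjusted p = 0.49).

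Tnfrsf12a (chr17:23675445-23677468, minus strand) encodes FN14, the receptor of TWEAK, which injured and regenerating liver is known to induce. Its levels were 8.15, 5.45, 9.34 and 7.38 CPM in WT chow, at 45.2 and 42 in KO chow, at 45.5, 39.8 and 38.3 in WT CDAHFD and at 40.3, 39.1 and 30.4 in KO CDAHFD. The WT chow libraries all lay at or under 9.34 CPM and the others at or above 30.4. Log2 fold changes were 2.52 (SE 0.18) in KO chow, 2.44 (SE 0.16) in WT CDAHFD and 2.27 (SE 0.16) in KO CDAHFD. Its ligand gene Tnfsf12 rose less, from 6.59 ± 1.08 CPM (SD, n = 4) in WT chow to 10.2 ± 1.19 (n = 2) for KO chow, 12.4 ± 1.19 (n = 3) for WT CDAHFD and 13.8 ± 2.74 (n = 3) for KO CDAHFD, with log2 fold changes of 0.63, 0.91 and 1.06. In KO chow the Tnfsf12 call (adjusted p = 0.017) was lost without KO chow replicate 1 (adjusted p = 0.13) and over the 8 libraries with a low clock score (adjusted p = 0.084). Of its exon bases 48.3% are shared with the fused gene Tnfsfm13, which held 541 counts beside 4982 of Tnfsf12.

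In the RANK system the receptor was called and the ligand could not be tested. Tnfrsf11a (chr1:105780718-105847981, plus strand), the gene of RANK, known from osteoclasts and dendritic cells, was at 1.59, 0.818, 1.73 and 1.01 CPM in WT chow, at 4.57 and 5.46 in KO chow, at 11.4, 10.1 and 8.67 in WT CDAHFD and at 8.8, 5.88 and 9.59 in KO CDAHFD. KO chow lay between WT chow and both CDAHFD groups without overlap. Log2 fold changes were 1.96 (SE 0.28) in KO chow, 2.96 (SE 0.26) in WT CDAHFD and 2.65 (SE 0.26) in KO CDAHFD. The difference of KO chow from WT CDAHFD was −1.0 (95% interval −1.62 to −0.38) and just missed the threshold (adjusted p = 0.058). RANK ligand, Tnfsf11, had only 0 to 8 counts in any library and was not tested, with ratios of pooled counts to WT chow of 2.74-fold (interval 0.725 to 15.3) in WT CDAHFD and 2.11-fold (interval 0.482 to 12.7) in KO CDAHFD. The decoy receptor of RANK ligand, Tnfrsf11b (osteoprotegerin), rose from 3.92 ± 0.528 CPM (SD, n = 4) to 11.2 ± 4.75 (n = 2), 9.19 ± 0.913 (n = 3) and 7.04 ± 0.521 (n = 3) for KO chow and in WT and KO mice on CDAHFD, by log2 1.51, 1.23 and 0.84. The KO chow libraries stood apart at 7.8 and 14.5 CPM, and the log2 fold change in KO chow was 0.99 without replicate 2, 1.90 without replicate 1 and 0.85 over the 8 libraries with a low clock score, all called.

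The BAFF and APRIL system has 3 receptors, of which only 1 was called. Tnfrsf13b (chr11:61126755-61149372, plus strand), the gene of TACI, known from B cells and some macrophages, was at 0.155, 0.441, 0.467 and 0.183 CPM in WT chow, at 1.17 and 1.41 in KO chow, at 2.97, 2.91 and 2.73 in WT CDAHFD and at 2.91, 3.69 and 3.04 in KO CDAHFD. Its libraries fell into 3 levels, WT chow, KO chow and both CDAHFD groups, with no overlap between them. The log2 fold changes were 1.99 (SE 0.34) in KO chow, 3.14 (SE 0.30) in WT CDAHFD and 3.30 (SE 0.30) in KO CDAHFD, with adjusted p of 5.8e-04, 3.1e-06 and 1.9e-06. Tnfrsf13c, the BAFF receptor of mature B cells, was not called at 0.0776 to 0.388 CPM, and Tnfrsf17, the plasma cell receptor BCMA, had 0 or 1 count per library and was not tested. B cell and plasma cell markers (Ms4a1, Cd79a, Cd79b, Jchain and Mzb1) summed to 3.44 to 6.95 CPM in WT chow, from 6.15 to 16.5 in KO chow, from 6.42 to 9.9 in WT CDAHFD and from 6.16 to 12.2 in KO CDAHFD. Of the 4 tested, 1 rose in KO chow and none was called in either CDAHFD group.

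Both ligands of TACI rose with it in CDAHFD. Tnfsf13b (chr8:10006467-10039072, plus strand), the BAFF gene, was at 0.466, 0.504, 0.30 and 0.183 CPM in WT chow, at 2.2 and 1.16 in KO chow, at 1.41, 1.46 and 1.84 in WT CDAHFD and at 1.04, 1.5 and 2.16 in KO CDAHFD. All libraries outside WT chow were above all WT chow libraries. Log2 fold changes were 2.17 (SE 0.41) in KO chow, 2.07 (SE 0.37) in WT CDAHFD and 2.07 (SE 0.38) in KO CDAHFD, the last 1.38 over the 8 libraries with a low clock score. Tnfsf13, the APRIL gene, was at 0.66, 0.755, 0.467 and 0.459 CPM in WT chow, at 0.789 and 0.606 in KO chow, at 1.74, 1.34 and 1.2 in WT CDAHFD and at 1.28, 1.12 and 1.55 in KO CDAHFD and was called in WT CDAHFD (1.27, SE 0.27, adjusted p = 0.0017) and KO CDAHFD (1.16, SE 0.27, adjusted p = 0.0033) and not in KO chow (0.24, SE 0.32, adjusted p = 0.59). The direct difference of KO chow from WT CDAHFD, −1.03, was not called (adjusted p = 0.077), and over the 8 libraries with a low clock score the KO CDAHFD call was lost (adjusted p = 0.0997). Tnfsf13 is uncertain, since 60.1% of its exon bases are shared with the fused gene Tnfsfm13 and 13.5% with the antisense Tnfsf13os, and the libraries are unstranded. Tnfsf13os itself, at 0.333 to 0.815 CPM, was not called, though it was without WT chow replicate 1 in WT CDAHFD (1.03, adjusted p = 0.012) and KO CDAHFD (1.04, adjusted p = 0.011).

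Tnfrsf1b (chr4:145213463-145246870, minus strand), the gene of TNFR2, which binds membrane TNF, differed by diet. It was at 47.9, 33.8, 36.5 and 56.4 CPM in WT chow, at 48.8 and 49.7 in KO chow, at 101, 98.6 and 82.4 in WT CDAHFD and at 79.3, 68.8 and 83.4 in KO CDAHFD. KO chow lay within the range of WT chow, and all 6 CDAHFD libraries lay above all 6 chow libraries. The log2 fold changes from WT chow were 0.18 (SE 0.18) in KO chow, 1.11 (SE 0.16) in WT CDAHFD and 0.82 (SE 0.16) in KO CDAHFD, with adjusted p of 0.48, 9.2e-05 and 8.6e-04. The log2 difference of KO chow from WT CDAHFD was −0.93 (95% interval −1.36 to −0.50, adjusted p = 0.017). This call was lost without either KO chow library or without WT CDAHFD replicate 1 or 2, with adjusted p up to 0.13. KO CDAHFD against KO chow gave 0.65 (adjusted p = 0.073) and was not called.

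Tnfrsf19, the gene of TROY, was at 1.48, 2.8, 6.7 and 4.27 CPM in WT chow, at 7.23 and 9.43 in KO chow, at 9.98, 10.4 and 10.2 in WT CDAHFD and at 13.4, 15 and 20.7 in KO CDAHFD. It rose in all 3 comparisons (log2 1.13, 1.42 and 2.10), but in KO chow not without either KO chow library, without WT chow replicate 2 or 4, or where only the 2 groups compared were fitted (adjusted p up to 0.19). Over the 8 libraries with a low clock score the log2 fold changes of Tnfrsf19 were 1.74, 2.23 and 2.71, all called. Ltbr, the lymphotoxin-β receptor and per length the most abundant of the tested members in WT chow, was at 103, 89.2, 129.8 and 117 CPM in WT chow, at 96.6 and 105 in KO chow, at 101, 92.6 and 106 in WT CDAHFD and at 104, 105 and 102 in KO CDAHFD. The groups overlapped and log2 fold changes were −0.12, −0.14 and −0.08, none called. With total counts as the only scaling its sign turned and it was called higher in both CDAHFD groups. Its ligand gene Ltb (chr17:35194439-35196320, plus strand) rose instead. It was at 1.09, 0.787, 1.13 and 1.01 CPM in WT chow, at 5.06 and 3.01 in KO chow, at 6.43, 4.99 and 4.48 in WT CDAHFD and at 6.81, 6.63 and 7.06 in KO CDAHFD, with log2 fold changes of 2.0 (SE 0.24) in KO chow, 2.40 (SE 0.22) in WT CDAHFD and 2.77 (SE 0.22) in KO CDAHFD. Tnfsf14, the gene of LIGHT and another ligand of this receptor, ran from 0.183 to 1.18 CPM and was not called (log2 0.31, 0.79 and 0.84). Without WT chow replicate 1 it was called in WT CDAHFD (1.36, adjusted p = 0.015) and KO CDAHFD (1.41, adjusted p = 0.013).

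Of the 7 costimulatory receptors, all tested, 2 rose in KO chow and 3 in each CDAHFD group. Of all genes, 22%, 26.1% and 26.9% were called higher in KO chow and in WT and KO mice on CDAHFD. Tnfrsf8 and Tnfrsf9, among the receptors called, would not have passed the filter in WT chow alone. Cd40 (chr2:165055627-165072948, plus strand), carried by B cells, macrophages and dendritic cells, was at 0.776, 0.252, 0.767 and 0.413 CPM in WT chow, at 2.47 and 2.26 in KO chow, at 2.77, 2.35 and 2.45 in WT CDAHFD and at 2.84, 2.59 and 2.47 in KO CDAHFD. All libraries outside WT chow lay between 2.26 and 2.84 CPM, and all WT chow libraries at 0.776 or less. Log2 fold changes were 2.09 (SE 0.33) in KO chow, 2.19 (SE 0.30) in WT CDAHFD and 2.25 (SE 0.30) in KO CDAHFD, with adjusted p of 2.8e-04, 5.9e-05 and 4.4e-05. Its ligand gene Cd40lg, a product of activated T cells, had 1 to 13 counts per library and was not called. Dendritic cell markers (5 genes) summed to 9.68 to 11.7 CPM in WT chow, from 15.5 to 18.2 in KO chow, from 16.8 to 19.4 in WT CDAHFD and from 19.8 to 23.6 in KO CDAHFD.

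Tnfrsf9, the gene of 4-1BB, had 3, 2, 1 and 0 counts in WT chow, 19 and 17 in KO chow, 11, 18 and 14 in WT CDAHFD and 8, 13 and 19 in KO CDAHFD. It was called higher in all 3 comparisons (log2 3.01, 2.36 and 2.53, adjusted p = 0.0020, 0.0052 and 0.0031), and over the 8 libraries with a low clock score the calls in WT CDAHFD and KO CDAHFD were lost (adjusted p = 0.053 and 0.097). Without WT chow replicate 1 the log2 fold changes of Tnfrsf9 were 3.60, 2.96 and 3.14. The NF-κB and AP-1 matches of Tnfrsf9 lie in the window of its internal start, in bases annotated as an exon. Tnfsf9, its ligand gene, which shares 14.9% of its exon bases with Gm11110, had 2, 0, 0 and 1 counts in WT chow, 7 and 8 in KO chow, 21, 16 and 14 in WT CDAHFD and 17, 15 and 15 in KO CDAHFD. With 3 counts in all of WT chow, the ratios of pooled counts were 7.01-fold (interval 1.98 to 37.8), 12.7-fold (interval 4.12 to 63.7) and 14.2-fold (interval 4.57 to 71.3) in KO chow and in WT and KO mice on CDAHFD. All 3 were called (adjusted p = 0.014, 6.0e-04 and 3.9e-04), the first no longer without either KO chow library or over the 8 libraries with a low clock score (adjusted p = 0.057, 0.056 and 0.14). Without WT chow replicate 1, which held 2 of the 3 counts, the fitted log2 fold changes of Tnfsf9 went from 2.65, 3.5 and 3.66 to 3.68, 4.54 and 4.71.

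Tnfrsf8, the CD30 gene, had 1, 0, 5 and 3 counts in WT chow, 2 and 4 in KO chow, 13, 16 and 20 in WT CDAHFD and 15, 9 and 12 in KO CDAHFD. It was called in WT CDAHFD (1.98, SE 0.62, adjusted p = 0.017) and KO CDAHFD (1.80, SE 0.63, adjusted p = 0.031), the first lost without WT CDAHFD replicate 3 (adjusted p = 0.059) and the other without WT chow replicate 1 or KO CDAHFD replicate 1 or 3 (adjusted p up to 0.087). Without WT chow replicate 3, which held 5 of its counts, the log2 fold changes of Tnfrsf8 were 2.65 and 2.48, and over the 8 libraries with a low clock score 4.04 and 3.89. Its ligand gene Tnfsf8 had 0, 1, 0 and 1 counts in WT chow, 12 and 17 in KO chow, 9, 13 and 9 in WT CDAHFD and 8, 10 and 14 in KO CDAHFD, which gave ratios of pooled counts to WT chow of 20.3-fold (interval 5.14 to 176), 11.6-fold (interval 2.95 to 100.04) and 14.5-fold (interval 3.7 to 125), all called (adjusted p = 4.5e-04, 0.0013 and 5.8e-04). These genes are rare transcripts in liver and their ratios carry wide intervals.

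The remaining costimulatory receptors were not called in any comparison with WT chow. Cd27, a receptor of T and B cells, ran from 0.0459 to 1.02 CPM, Tnfrsf4 (OX40) from 0.321 to 0.721, Tnfrsf18 (GITR) from 0.381 to 1.36 and Tnfrsf14 (HVEM) from 2.7 to 8.65. Their log2 fold changes lay between −0.27 (Tnfrsf18 in KO chow) and 0.54 (Tnfrsf14 in WT CDAHFD). Tnfrsf14 was called higher in WT CDAHFD where only the 2 groups compared were fitted (0.59, adjusted p = 0.0092) and without KO CDAHFD replicate 2 (adjusted p = 0.011). Of the exon bases of Tnfrsf18, 27.2% lie opposite the antisense gene Gm16008. T cell markers (6 genes) summed to 4.4 to 7.65 CPM in WT chow, from 5.14 to 7.7 in KO chow, from 6.0 to 6.6 in WT CDAHFD and from 5.75 to 7.71 in KO CDAHFD, and 4, 3 and 4 of the 6 rose while 1 fell in each. Of the 6 costimulatory ligands, 3 were not tested. Cd70 had 1 count in all 12 libraries, Tnfsf4 (OX40 ligand) 0 to 2 counts per library and Tnfsf18 (GITR ligand) none in WT chow and 9, 9 and 5 in WT CDAHFD. Set against 3 counts over the WT chow group, the pooled counts of Tnfsf18 gave ratios of 5.74 in WT CDAHFD and 3.27 in KO chow. These ratios take the counts of WT CDAHFD and KO chow as exact, so they are not lower limits, and no test was made. In KO CDAHFD Tnfsf18 had 0, 2 and 0 counts.

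Tnfrsf22, Tnfrsf23 and Tnfrsf26 lie side by side on chromosome 7 and resemble each other, so that reads may be split between them. Tnfrsf23, a TRAIL decoy receptor, rose from 0.602 ± 0.273 CPM (SD, n = 4) to 1.9 ± 0.0448 (n = 2), 2.2 ± 0.263 (n = 3) and 2.05 ± 0.137 (n = 3) for KO chow and in WT and KO mice on CDAHFD, by log2 1.64, 1.85 and 1.75. Tnfrsf22, the other TRAIL decoy receptor, was not called, at 0.367 to 2.16 CPM over all libraries (log2 0.53, 0.75 and 0.71). Tnfrsf26, a related receptor at 0.505 to 2.56 CPM, was called in WT CDAHFD (1.25, SE 0.30) and KO CDAHFD (1.14, SE 0.30) and not in KO chow (0.56, SE 0.34).

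Per length of exon, the order of levels was led by receptors of TNF and lymphotoxin. In WT chow Ltbr stood at 46.6 CPM per kb, Tnfrsf1a at 38.1 and Tnfrsf1b at 11.4, followed by Fas at 9.28, Tnfsf12 at 4.35 and Tnfrsf12a at 3.92. In WT CDAHFD Tnfrsf1a stood at 51.2, Ltbr at 42.4, Tnfrsf1b at 24.6 and Tnfrsf12a at 21.3 CPM per kb. In KO chow Tnfrsf12a, at 22.6, was above Tnfrsf1b, at 12.9. Eda2r went from 0.0982 CPM per kb in WT chow (rank 28 of 39) to 1.6 in KO chow (rank 13), and Tnfrsf10b from 0.0891 (rank 29) to 1.14 (rank 16). Tnf stood at 0.166 in WT chow and 1.9 CPM per kb in WT CDAHFD.

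Between the KO and WT mice on CDAHFD no member was called by edgeR or by DESeq2, where 0.357% of all genes were called by edgeR, and 3 members had an unadjusted p under 0.05. Those 3 were Tnfrsf10b and Eda2r, lower in KO CDAHFD, and Tnfrsf25, higher (log2 0.61, 95% interval 0.05 to 1.17). Ppara, the targeted gene, was not called by edgeR in this comparison either (log2 −0.94). For abundant members such as Tnfrsf1a and Tnfrsf12a the intervals were narrower than for rare ones. Tnfrsf1a differed by −0.01 (95% interval −0.26 to 0.24) and Tnfrsf12a by −0.17 (−0.54 to 0.19). Tnf, at lower levels, differed by 0.11 with a wider interval (−0.42 to 0.64), which does not show equal levels. For rare members such as Cd40lg (−1.91 to 1.06) or Cd27 (−1.35 to 1.43), differences of 1 log2 unit either way lie within the interval, so a missing call does not show equal levels.

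Within the KO mice, CDAHFD against chow called 1 member of 39, where 6.19% of all genes were called. This was Tnfrsf13b, higher by 1.31 (SE 0.32) on the log2 scale (adjusted p = 0.034), and the call was lost without any 1 of the 8 libraries of WT CDAHFD, KO chow and KO CDAHFD and over the 8 libraries with a low clock score, with adjusted p up to 0.22. KO chow against WT CDAHFD called 1 member, Tnfrsf1b, where 6.12% of all genes were called. In that comparison Tnfrsf13b (−1.15, adjusted p = 0.054), Tnfrsf11a (−1.0, adjusted p = 0.058) and Tnfrsf8 (−2.09, adjusted p = 0.11) were lower and not called. In the plot of differences among these groups, the intervals of most members cross 0.

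**Figure D3:**
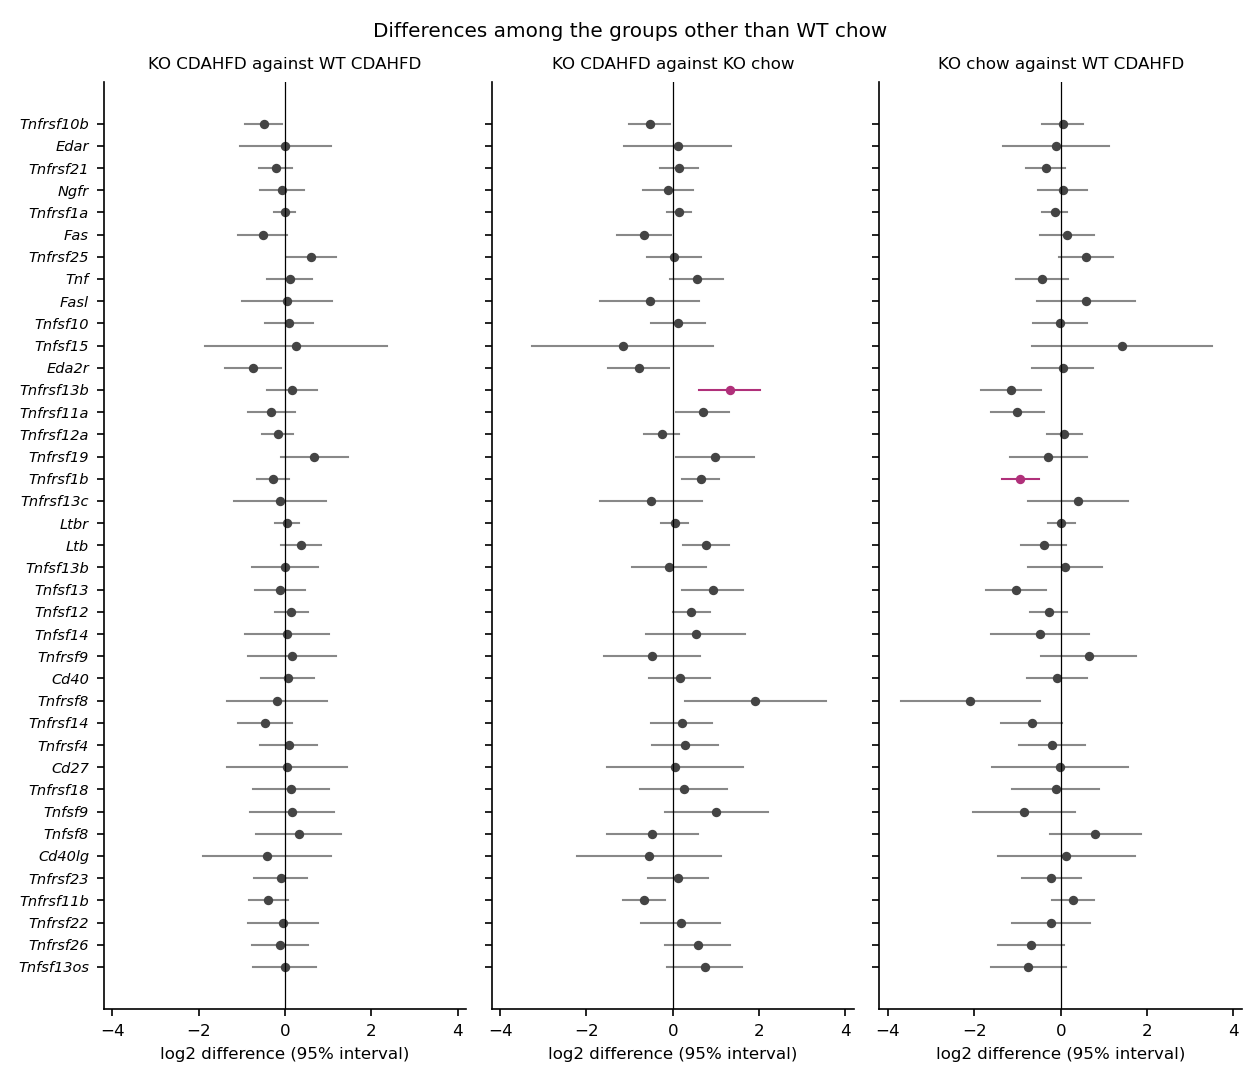
Log2 differences of the 39 tested members (points) with 95% intervals (lines) in KO CDAHFD against WT CDAHFD, KO CDAHFD against KO chow and KO chow against WT CDAHFD, in the order of the roles. Purple marks the calls, Tnfrsf13b in the middle panel and Tnfrsf1b in the right panel, and the left panel has none.

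The interaction of genotype and diet asks whether the step from chow to CDAHFD differed between KO and WT mice, as the step in KO minus the step in WT. It was called for 16 of 39 members (41%), all negative, where 14.5% of all genes were called negative and 8.63% positive. Of the 29 members that pass the filter on counts in WT chow alone, 12 were called, all negative, with no share of all genes computed under that filter. Eda2r (−4.78, SE 0.46) and Tnfrsf10b (−4.17, SE 0.31) had the largest sizes, and adjusted p of the 16 ran up to 0.027. On the log2 scale Tnfrsf10b went from WT chow to WT CDAHFD by 3.64 and from KO chow to KO CDAHFD by −0.53, and Tnf by 3.49 and 0.55. By role, the 16 were 4 death-domain receptors (Tnfrsf10b, Tnfrsf21, Ngfr and Edar), Tnf, 4 NF-κB receptors (Eda2r, Tnfrsf11a, Tnfrsf12a and Tnfrsf13b), Ltb and Tnfsf13b, Cd40, Tnfrsf9 and Tnfsf8, and the decoys Tnfrsf11b and Tnfrsf23. Tnfrsf1b (−0.46, SE 0.25, adjusted p = 0.21) and Tnfrsf19 (−0.44, SE 0.53, adjusted p = 0.61) were not among them. The median interaction of the members was −0.91 and that of all genes 0.01. Over the 8 libraries with a low clock score these medians were −1.28 and 0.00.

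The genes that act with these receptors were followed in 5 lists written from general knowledge, with earlier results of these data known. Of 67 pathway genes tested, 29 rose and 5 fell in KO chow (43.3% and 7.46%, against 22% and 17% of all genes). In WT CDAHFD 35 rose and 8 fell (52.2% and 11.9%, against 26.1% and 25%), and in KO CDAHFD 33 rose and 10 fell (49.3% and 14.9%, against 26.9% and 25.4%). Their median log2 fold changes were 0.34, 0.49 and 0.35. The pathway genes and the cell type markers were fitted with TMM scaling alone. With total counts as the only scaling, the median of all genes moved to 0.40, 0.51 and 0.57 in the same order. Whether falls of that size or less hold under that scaling was not tested. Values in brackets are log2 fold changes against WT chow, first in KO chow and then in WT and KO mice on CDAHFD. Among the 25 adaptors, ubiquitin enzymes and kinases, 5, 7 and 7 rose (20%, 28% and 28%) and 2, 4 and 5 fell (8%, 16% and 20%), with medians of −0.10, 0.00 and −0.07. The shares that rose are near those of all genes, and the shares that fell are below them. The feedback inhibitor Tnfaip3 (A20; 2.65, 3.03 and 2.55), its partner Tnip1 (1.18, 1.93 and 1.70) and the kinase of the non-canonical pathway Map3k14 (NIK; 1.24, 2.06 and 1.88) rose in all 3 comparisons. Sharpin, of the linear ubiquitin ligase (−0.48, −0.54 and −0.48), and Chuk (IKKα; −0.65, −0.68 and −0.94) fell in all 3, and Map3k7 (TAK1; −0.32, −0.47 and −0.55) fell in both CDAHFD groups and was not called in KO chow.

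Of 10 NF-κB subunits and inhibitors, 5, 6 and 6 rose (50%, 60% and 60%) and none fell, with medians of 0.49, 0.66 and 0.54. The non-canonical subunit gene Relb (2.08, 2.50 and 2.40), the inhibitor Nfkbie (1.32, 1.93 and 1.82) and Nfkb1 (0.46, 0.64 and 0.47) rose in each comparison. Rela (0.00, 0.19 and 0.12) and Nfkbia (−0.13, −0.01 and −0.08) were not called. Of 12 NF-κB target genes 11 were tested, and 9, 10 and 9 rose (81.8%, 90.9% and 81.8%), with medians of 2.74, 2.01 and 2.01. The adhesion molecule genes Vcam1 (3.04, 2.56 and 2.59) and Sele (5.40, 5.35 and 4.91) and the survival gene Bcl2a1b (3.99, 4.72 and 4.82) had the lowest adjusted p. Sele had only 0 to 3 counts per WT chow library and Bcl2a1b 1 to 7, and Bcl2a1b has near-identical copies with which it can share reads. Il6 was not tested, at 0 to 10 counts per library.

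Of 15 death effectors and their inhibitors, 6, 7 and 6 rose (40%, 46.7% and 40%) and 2, 3 and 4 fell (13.3%, 20% and 26.7%), with medians of 0.17, 0.01 and 0.20. The shares that fell lie on either side of the 17%, 25% and 25.4% of all genes called lower. Apaf1, the core of the apoptosome (1.60, 2.18 and 2.05), Mlkl, the effector of necroptosis (2.08, 1.98 and 1.81), and the pore protein gene Bak1 (0.68, 0.90 and 0.79) rose in all 3 comparisons. The caspase inhibitor gene Xiap (−0.92, −0.74 and −0.86) fell in all 3. Cflar, the FLIP gene that restrains caspase-8 at death receptors (−0.33, −0.49 and −0.71), fell in both CDAHFD groups and was not called in KO chow. Fadd, the adaptor of FAS and DR5, was not called (−0.14, −0.06 and 0.01). Of 6 genes of ligand processing and shedding, 4, 5 and 5 rose and 1 fell in each comparison. Rhbdf1 (1.66, 2.10 and 2.25), whose product brings the TNF sheddase to the surface, and the sheddase genes Adam17 (0.73, 0.92 and 0.68) and Adam10 (0.45, 0.92 and 0.74) rose, and the convertase gene Furin (−0.70, −0.48 and −0.67) fell.

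Between KO CDAHFD and WT CDAHFD none of the 67 pathway genes was called, with log2 differences from −0.48 to 0.72. KO CDAHFD against KO chow called 1, Rhbdf1 (0.59, SE 0.12), and KO chow against WT CDAHFD called 2, Map3k14 (−0.82, SE 0.19) and Tnip1 (−0.75, SE 0.19). The interaction was called for 24 as negative (35.8%, against 14.5% of all genes) and 2 as positive (2.99%, against 8.63%).

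**Figure D4:**
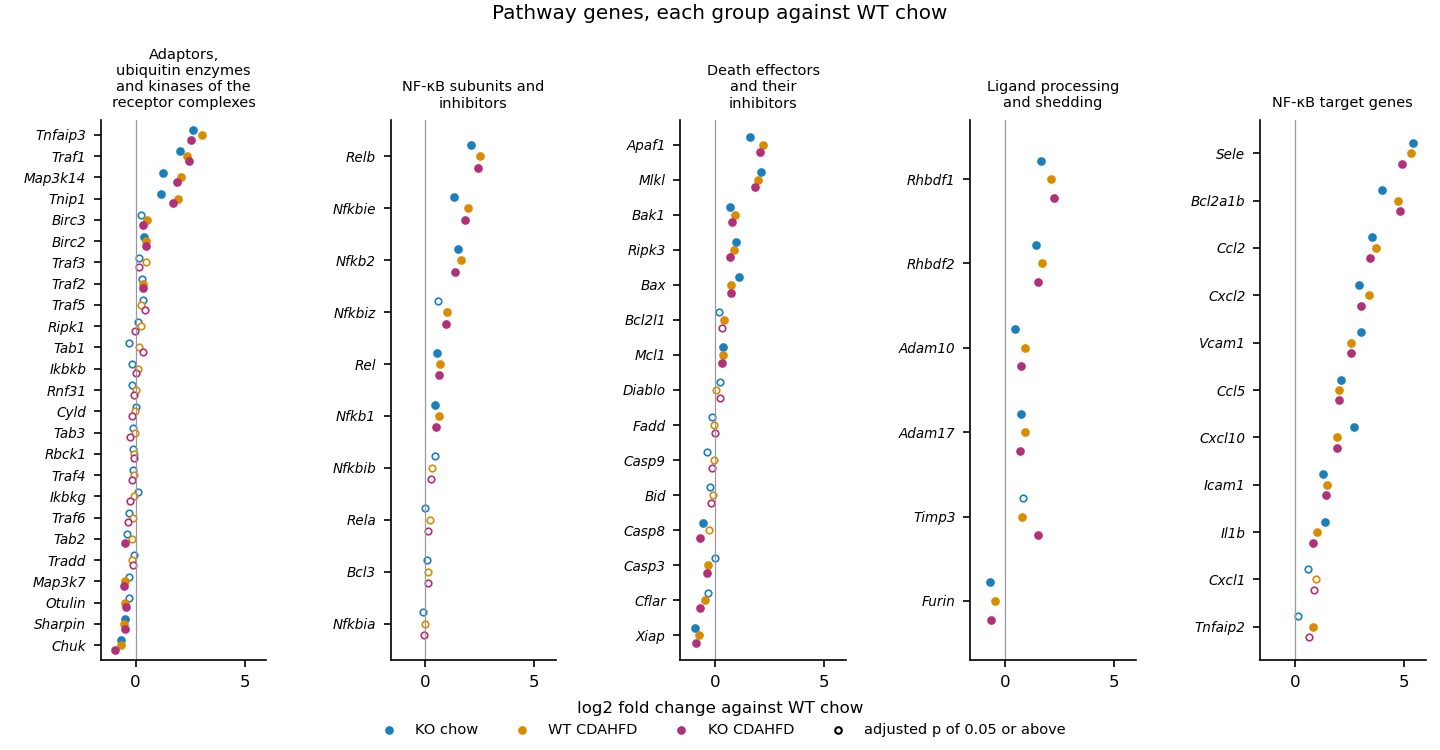
Log2 fold changes against WT chow (x axis) of the tested pathway genes in 5 lists, in KO chow and in WT and KO mice on CDAHFD. Filled points passed the test. Most NF-κB target genes (9 to 10 of 11) are filled and lie to the right of 0, while adaptors and death effectors spread to both sides.

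Markers of other liver cells moved with these groups. Cholangiocyte markers (Krt19, Krt7, Epcam, Sox9 and Spp1) summed to 46 to 79.4 CPM in WT chow, from 165 to 288 in KO chow, from 358 to 578 in WT CDAHFD and from 568 to 883 in KO CDAHFD, with 4, 5 and 5 of 5 higher. Neutrophil markers summed to 0.871 to 8.39, 10.1 to 21.7, 9.77 to 11 and 11.7 to 13.1 CPM in the same order, and Ly6g and Mpo were at 0 in all WT chow libraries. Endothelial markers summed to 136 to 204, 137 to 194, 104 to 144 and 104 to 173 CPM. Of 6 hepatocyte markers, 4 fell in KO chow and all 6 in each CDAHFD group, and their median log2 fold changes were −0.71, −1.07 and −0.97. The part of these shifts in the members' changes was not tested.

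**Figure D5:**
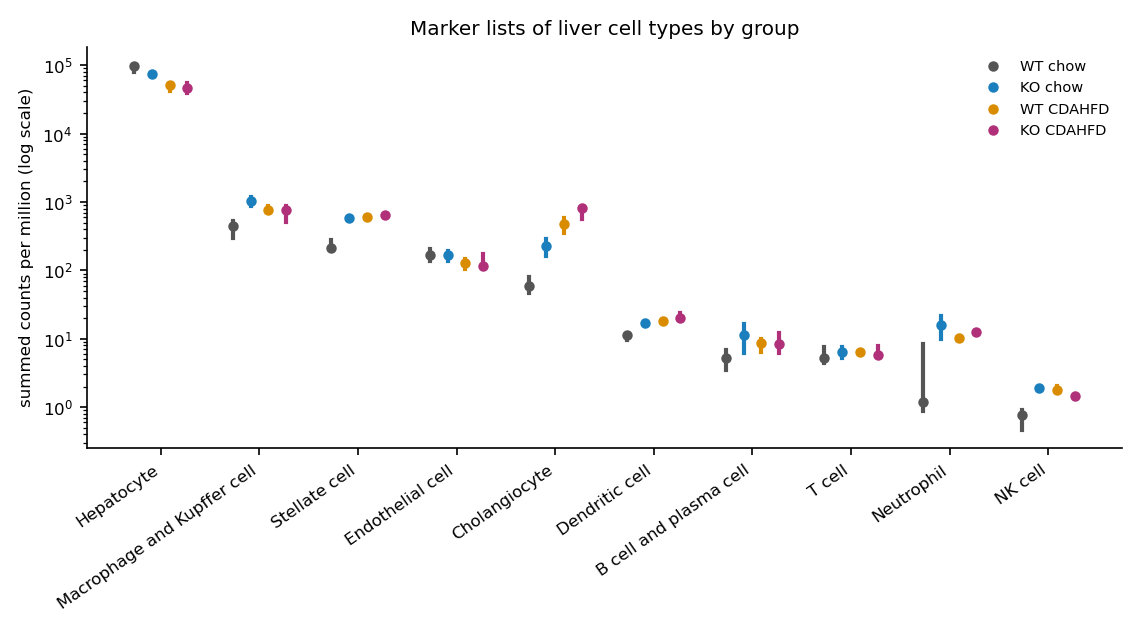
Summed CPM (y axis, log scale) of 10 lists of cell type markers in the 4 groups. Points are group medians and lines run from the lowest to the highest library. Cholangiocyte, stellate cell, dendritic cell, neutrophil and NK cell lists are higher in all groups than in WT chow. The B cell and T cell lists overlap with WT chow, as does the macrophage list in KO CDAHFD.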

How the data were processed

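Read counts per gene were deposited by the authors for 12 liver libraries as 1 table, made from poly-A selected, non-directional libraries, aligned to GRCm38 with STAR 2.7.3a after FastQC 0.11.5. The authors used DESeq2 for their own tests, which were not used here. All 12 columns were matched to a library. Genes were tested with edgeR 4.0.16 in R 4.3.3 (TMM scaling, filterByExpr, 1 mean per group over all libraries, quasi-likelihood F test, Benjamini-Hochberg adjustment over 17358 genes). The filter kept genes with at least 0.270 CPM in 2 or more libraries, where CPM was taken before TMM scaling, unlike the CPM printed elsewhere. SEs were taken as the size of the log2 fold change over the square root of F. Depth ran from 29906785 to 43551003 counts, and counting intervals cover counting error only. Overlaps and exon lengths were taken from the GENCODE M21 annotation.

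All 45 members are named. In each pathway list up to 3 called genes with the lowest adjusted p in each direction in WT CDAHFD against WT chow are named. A gene of these lists and a cell type marker are not reported here. Rela, Nfkbia, Fadd and Il6 were named after their values were seen. Members, roles and lists were chosen with earlier results of these data known. Alternatives were RLE scaling, total counts as the only scaling, DESeq2 1.42.0, no filter, leaving out each library, a replicate block, the clock score as covariate and a fit of the 2 groups compared. A fit of the 8 libraries with a low clock score was added after the scores were seen. The fit was also run on simulated counts in which few genes were changed, up and down alike, in WT CDAHFD. That setting differs from these data, where many genes were called, so it does not test the scaling.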

Additional observations from a re-analysis of the deposited data

Results flagged for a closer look

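The change from chow to CDAHFD differed between KO and WT mice in the interaction term of the fit for 16 members. Values are log2, as the step in KO minus the step in WT. Among receptors with a death domain they were Tnfrsf10b (−4.17), Tnfrsf21 (−1.76), Ngfr (−1.27) and Edar (−3.27). NF-κB receptors in this set were Eda2r (−4.78), Tnfrsf11a (−2.27), Tnfrsf12a (−2.69) and Tnfrsf13b (−1.83). Costimulatory and decoy receptors were Cd40 (−2.03), Tnfrsf9 (−2.84), Tnfrsf11b (−1.89) and Tnfrsf23 (−1.74), and ligands were Tnf (−2.94), Ltb (−1.64), Tnfsf8 (−3.79) and Tnfsf13b (−2.17). All 16 are negative, and all 16 also rose in KO chow against WT chow, a comparison with which the interaction shares its libraries. With total counts as the only scaling 21 members were called, where 28.5% of all genes were called. The calls of Edar, Ngfr, Tnfrsf13b, Tnfrsf9, Tnfsf13b and Tnfsf8 were each lost in at least 1 alternative.

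A pair of members had 1 WT chow library far from the other 3, by Dixon's ratio of the gap to the range. For Fas, WT chow replicate 1 gave a ratio of 0.934, and for Tnfsf13os the ratio was 0.835. Chance gives about 1 such group in 20, and both members are described in the report with and without that library.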

How the results depend on the processing

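Against WT chow, 19, 24 and 24 members were called in KO chow and in WT and KO mice on CDAHFD. Leaving out 1 library at a time gave 16 to 22, 23 to 27 and 23 to 25. For the interaction it gave 12 to 18 and for KO CDAHFD against WT CDAHFD 0 in each case. The small counts moved most. In KO CDAHFD against KO chow, where 1 member was called, total counts as the only scaling gave 3, DESeq2 3, every gene with a count 2, the replicate block 0, the 8 libraries with a low clock score 0, and leaving out 1 library 0 to 2 (2 without WT chow replicate 2 or 4, 0 without KO chow replicate 2 or any 1 of the CDAHFD libraries). In KO chow against WT CDAHFD, where 1 was called, RLE scaling gave 2, total counts 3, DESeq2 4, every gene with a count 3, the clock score as covariate 3, a fit of only these 2 groups 4, and leaving out 1 library 0 to 3 (2 or 3 without any 1 of the WT chow libraries, 2 without KO CDAHFD replicate 2, 0 without either KO chow library or WT CDAHFD replicate 1 or 2). Ltbr changed sign with total counts as the only scaling, to 0.53 in KO CDAHFD and 0.43 in WT CDAHFD against WT chow (edgeR adjusted p = 0.0013 and 0.0059). The cause of these moves was not tested.

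No pairing of the libraries by replicate number was seen, though this check cannot exclude it. Deviations were centred within each group, which makes the 2 KO chow libraries mirror images of each other. Deviations of 15 same-numbered pairs from their group means correlated from −0.242 to 0.266, and 12 of the 15 were below 0.1. With the replicate block 19, 24 and 24 members were called against WT chow and 14 for the interaction. Members with a few counts per library are limited by depth, and KO chow by its 2 libraries.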
